A study of Mus musculus with 10 samples.

Results

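Ptprt, which encodes a receptor-type tyrosine phosphatase that removes phosphate from STAT3, and 9 genes of the JAK-STAT pathway (Jak1, Jak2, Stat3, Stat5a, Stat5b, Socs2, Socs3, Cish and Pim1) were followed through 10 RNA-sequencing libraries of mouse MLL-AF9 leukemia cells. The 10 genes were chosen by name, with earlier results of these data known. They were found by symbol through their Ensembl identifiers among the 52550 genes of the deposited count table. All 10 had at least 10 counts in total, the minimum set for a gene to be tested.

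The cells were hematopoietic stem and progenitor cells (HSPCs) from the bone marrow of C57BL/6 mice of 8 to 20 weeks, transformed by a retrovirus that carries the MLL-AF9 fusion oncogene. All of them also carry tetR-KRAB, a repressor that doxycycline (DOX) releases from DNA, and a DOX-inducible insert. In MLL-AF9-i139 the insert is miR-139 (pCW-miR-139), and 3 clones were sequenced once without DOX and once after DOX at 5 µg/mL, for 48 h in clones 1 and 2 and for 72 h in clone 3. The times of the untreated MLL-AF9-i139 cultures are not given in the sources used here. In MLL-AF9-ieGFP the insert is eGFP, and 1 clone was sequenced at 48 h and at 72 h, each time with and without DOX, so that its libraries are time points of 1 clone and the construct and the clone cannot be told apart. The culture medium contained SCF, GM-CSF, IL-6 and IL-3, cytokines whose receptors signal through JAK kinases or, for SCF, through the receptor kinase Kit. Libraries were made from total RNA after depletion of ribosomal RNA.

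JAK kinases sit on the inner side of cytokine receptors and, once a cytokine binds, phosphorylate STAT proteins, which then pair, enter the nucleus and switch on genes. Several of the genes they switch on shut the signal down again: Cish, Socs2 and Socs3 encode proteins that bind phosphorylated receptors or the JAK kinases, while Pim1 encodes a survival kinase that is a classic STAT5-induced gene. In myeloid cells the receptors for IL-3 and GM-CSF work mainly through JAK2 and STAT5, and the receptor for IL-6 through JAK1 and STAT3. The libraries measured RNA levels. The activity of the phosphatase and the phosphorylation of the STAT proteins were not measured in them.

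The sequences by which miR-139 can pair with these genes are shown because the construct expresses both arms of this microRNA. They come from the RefSeq annotation of GRCm38.p6, where the hairpin lies on chromosome 7, and the capitals mark the seed, bases 2 to 8.
mmu-miR-139-5p: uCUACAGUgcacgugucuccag
mmu-miR-139-3p: uGGAGACGcggcccuguuggag

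The longest annotated 3′ untranslated region (UTR) of Ptprt has 7526 bases, against a median of 1092 bases over the 13995 tested genes with an annotated 3′ UTR. The site that the study placed in a luciferase reporter lies at bases 6764 to 6793 of it, in exon 30 of 30, at chr2:161522723-161522752 on the minus strand of GRCm38. It holds GTCTCCA, which pairs with bases 2 to 7 of miR-139-3p and ends in A. The mutated reporter insert differs from it by C15A, T16C and C17A, where position 1 is the first base shown, on the 5′ side. Capitals mark the match in the first line and the substituted bases in the second.
Ptprt reporter site: ttcatgcgtattGTCTCCAaaggttaattc
Ptprt mutated site: ttcatgcgtattgtACAcaaaggttaattc

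Matches to the miR-139-5p seed were present in the 3′ UTRs of 4 of the 10 genes, and 21.7% of the 13995 tested genes had at least 1. They are shown because Ptprt and Pim1, which were lower with DOX, and Stat3 and Socs2, which were higher, all carry them. Capitals mark ACTGTAG (pairing with bases 2 to 8), CTGTAGA (bases 2 to 7 followed by A) or ACTGTAGA, the 8-base match.
Ptprt, chr2:161528484-161528513, minus strand: taaaaagacccACTGTAGgatgacacagcc
Ptprt, chr2:161525096-161525125, minus strand: gtctgttgtctCTGTAGAgttccatggctt
Stat3, chr11:100885897-100885926, minus strand: tacacaagtacACTGTAGctgtcctcagat
Socs2, chr10:95411916-95411945, minus strand: cgtgagtgagtACTGTAGtcctccatctca
Pim1, chr17:29495518-29495547, plus strand: cctgcaaaaggACTGTAGAtgataacaatt

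Matches to the miR-139-3p seed (CGTCTCC, or the GTCTCCA of the reporter site) were found in 5 of the 10 genes, against 15.9% of the 13995. Stat5b had 3 of them, Ptprt and Jak2 had 2 each, and Stat3 and Cish had 1 each. A match to either arm was present in 7 of the 10 genes, against 31.8% of the 13995. Stat5a, Socs3 and Jak1 had none. The 3′ UTRs of all 10 genes were longer than the median of 1092 bases, from 1128 for Jak1 to 7526 for Ptprt. The shares over the 13995 genes, for either arm, were not matched for this length. A match in a UTR describes the letters there and does not show that the microRNA acts on the gene.

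The palindrome TTCNNNGAA, to which STAT dimers bind, was searched on both strands of the promoters that RefSeq gives on GRCm38.p6, from 250 bases before to 50 bases after the start of transcription. Of the 10 genes, 9 had a promoter entry, and Socs2, which had none, was not searched. Cish had 2 copies, which begin at bases 1 and 12 counted from the start of transcription, and Socs3 had 1, which begins 154 bases before it (-154). Ptprt, Stat3, Stat5a, Stat5b, Pim1, Jak1 and Jak2 had 0 in this window. Of all 32851 promoters of this length, 8.3% had at least 1 copy and 0.457% had at least 2. The stretches of Cish and Socs3, the genes of the group with a copy, are shown, and capitals mark the palindromes. Whether STAT proteins bind there in these cells was not tested.
Cish, chr9:107296649-107296688, plus strand: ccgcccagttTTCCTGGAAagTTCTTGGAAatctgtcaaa
Socs3, chr11:117969502-117969530, minus strand: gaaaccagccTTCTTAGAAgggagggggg

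Total counts per library lay between 35133308 and 47089725. The markers of the labelled cells were present: of 9 genes listed for myeloid progenitors 8 had at least 10 counts in total, and their sum was between 2286 and 5165 CPM (counts-per-million of the library total). The ninth, Itgam, lies over 99.9% of its body within other annotated genes and had at most 3 counts in a library. The summed markers of T cells, B cells, erythroid cells, megakaryocytes and stroma were at most 2.95 CPM in any library, and Hbb-bs and Ms4a1 were at 0 in all 10. Of these genes 1, the megakaryocyte gene Gp9, passed in the DOX comparison of MLL-AF9-i139 with the clone block, and its values stand beside those of the myeloid markers. In bulk RNA, fewer cells of a type and less RNA per cell cannot be told apart. Mir139 itself had 0 counts in each library and lies entirely within other annotated genes, so it could not serve as a check of the DOX labels.

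RNA levels of single genes are given as CPM after scaling of the library totals by TMM normalization factors. Because long genes collect more reads, levels of different genes were compared only after division by the length of their exons. In the 3 untreated MLL-AF9-i139 clones, Pim1 stood highest with 48.3 ± 2.29 CPM per kilobase of exon (SD, n = 3), followed by Jak1 with 22.9 ± 0.778, Stat3 with 14.1 ± 0.31, Stat5b with 10.3 ± 0.783, Stat5a with 6.69 ± 0.233 and Jak2 with 4.37 ± 0.597. Cish with 2.83 ± 0.81 came next, then Socs2 with 1.14 ± 0.133, Ptprt with 0.787 ± 0.226 and Socs3 with 0.572 ± 0.206. Neighbours in this order did not overlap over the 3 clones, with 2 exceptions. Socs2, between 1.02 and 1.28, overlapped Ptprt, between 0.652 and 1.05, and Ptprt overlapped Socs3, between 0.394 and 0.798. Ptprt RNA was thus near the lower end of the group.

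How the authors counted matters most for Ptprt. Its gene on chromosome 2, from 161521990 to 162661147 on the minus strand, spans 1139158 bases and is 90.3 times as long as its exons, while the other 9 genes are between 1.05 and 15.6 times as long. Among protein-coding genes that lie inside another gene 96.7% had 0 counts, against 24.9% of those outside, and whether reads in introns were counted is not given in the sources used here. Per kilobase of the whole gene Ptprt came last, with 0.00871 ± 0.0025 CPM, and Pim1 first, with 30.3 ± 1.43 (SD, n = 3 clones). Jak1 moved from the second to the fifth place and Cish from the seventh to the second.

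Ptprt was lower with DOX in all 3 MLL-AF9-i139 clones. It was at 8.22, 8.34 and 13.2 CPM without DOX and at 3.70, 2.62 and 5.99 CPM with DOX, in clones 1, 2 and 3. These values rest on 401, 366 and 521 counts without DOX and on 177, 103 and 236 with DOX, and the smallest of them, 103, has an exact Poisson interval of 84.1 to 125 counts (95%), which covers counting error only. Each treated clone was below each untreated clone, and clone 3 was the highest of its group both with and without DOX.

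The mean of Ptprt was 4.10 ± 1.72 CPM with DOX and 9.92 ± 2.84 CPM without (SD, n = 3 clones), and the log2 fold change was -1.26 with a standard error (SE) of 0.33. This difference did not pass in the test without regard to clones (adjusted p = 0.120, quasi-likelihood test of edgeR, adjusted over 19223 genes by the method of Benjamini and Hochberg). Treated and untreated libraries come from the same clones, and in the fit that takes the clone as a block Ptprt fell by 1.30 on the log2 scale (SE 0.16, adjusted p = 0.0159, edgeR). DESeq2, run without the block, gave -1.27 (adjusted p = 0.00327). The log2 differences within clones 1, 2 and 3 were -1.14, -1.65 and -1.13.

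In the MLL-AF9-ieGFP clone, Ptprt stood at 3.81 CPM at 48 h and 4.70 CPM at 72 h without DOX, and at 4.57 and 3.07 CPM with DOX. The difference with DOX was upward at 48 h (0.26 on the log2 scale) and downward at 72 h (-0.61), and the fit gave -0.15 (SE 0.38, adjusted p = 1, edgeR). The DOX difference in MLL-AF9-i139 minus that in MLL-AF9-ieGFP was -1.12 on the log2 scale (SE 0.49), which did not pass the test of the interaction (adjusted p = 0.540 without and 0.113 with the clone block, edgeR).

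Without DOX, Ptprt was also higher in the MLL-AF9-i139 clones than in the MLL-AF9-ieGFP clone, where construct and clone cannot be told apart. All 3 untreated MLL-AF9-i139 clones lay above both untreated MLL-AF9-ieGFP cultures, with a log2 difference of 1.22 (SE 0.36), which did not pass (unadjusted p = 0.00581, adjusted p = 1, edgeR over 20269 genes). With DOX the difference was 0.10 (SE 0.35, adjusted p = 0.901, edgeR), and the treated MLL-AF9-i139 clones, from 2.62 to 5.99 CPM, surrounded the treated MLL-AF9-ieGFP values of 3.07 and 4.57.

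**Figure D1:**
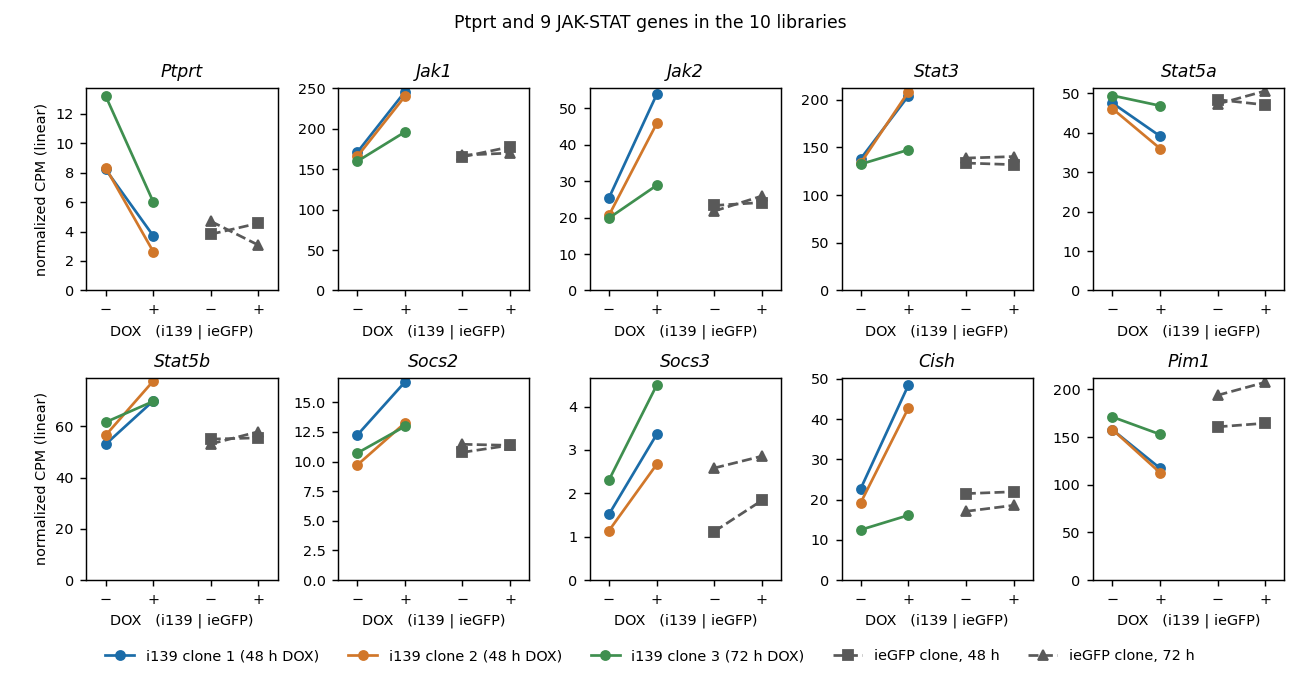
Normalized CPM on linear axes from 0 of Ptprt and the 9 JAK-STAT genes, 1 panel per gene, without (−) and with (+) DOX. Lines join the libraries of a MLL-AF9-i139 clone (colours) or of 1 time point of the MLL-AF9-ieGFP clone (grey, dashed). Ptprt moved from 8.22 to 13.2 CPM down to 2.62 to 5.99 CPM in MLL-AF9-i139, where the MLL-AF9-ieGFP values lay between 3.07 and 4.70.

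The kinases Jak1 and Jak2 were both higher with DOX in each MLL-AF9-i139 clone. Jak2, the kinase of the IL-3 and GM-CSF receptors, was at 25.4, 20.6 and 19.9 CPM without DOX and at 53.8, 45.9 and 28.9 CPM with DOX. All treated clones lay above all untreated ones, and clones 1 and 2, treated for 48 h, lay farther above than clone 3, treated for 72 h. The log2 fold change was 0.98 (SE 0.23, adjusted p = 0.105), and with the clone block Jak2 rose by 0.94 (SE 0.14, adjusted p = 0.0215, edgeR).

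Jak1, the kinase that IL-6 and interferon receptors use, was at 171, 166 and 160 CPM without DOX and at 246, 240 and 196 CPM with DOX. Its groups did not overlap either, and its log2 fold change was smaller, 0.47 (SE 0.11, adjusted p = 0.105, and 0.0278 with the clone block, edgeR). Over the 4 libraries of MLL-AF9-ieGFP Jak1 lay between 165 and 178 CPM and Jak2 between 21.8 and 25.9 CPM, so that all treated MLL-AF9-i139 clones were above them for both genes.

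Of the 3 transcription factors, Stat3 and Stat5b were higher and Stat5a was lower with DOX. Stat3, the substrate of PTPRT, was at 138, 134 and 132 CPM without DOX and at 204, 208 and 148 CPM with DOX. The groups did not overlap, and the difference in clone 3 (0.16 on the log2 scale) was smaller than those in clones 1 and 2 (0.56 and 0.64). The log2 fold change was 0.48 (SE 0.14, adjusted p = 0.131), and with the clone block Stat3 rose by 0.47 (SE 0.11, adjusted p = 0.0422, edgeR). In MLL-AF9-ieGFP Stat3 lay between 132 and 140 CPM in all 4 libraries.

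Stat5a and Stat5b are close relatives that lie beside each other and Stat3 on chromosome 11, and they are activated by the same receptors. Stat5b was at 53.0, 56.5 and 61.7 CPM without DOX and at 70.0, 77.8 and 69.8 CPM with DOX. Its groups did not overlap, and its log2 fold change was 0.36 (SE 0.10, adjusted p = 0.133, and 0.0480 with the clone block, edgeR). Stat5a was at 47.6, 46.2 and 49.5 CPM without DOX and at 39.2, 36.0 and 46.9 CPM with DOX, so that treated clone 3 overlapped the untreated range. Its log2 fold change of -0.22 (SE 0.12) did not pass without the block (adjusted p = 0.344) or with it (adjusted p = 0.138, edgeR).

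The ratio of Stat5b to Stat5a counts does not depend on the scaling of the libraries. It was 1.11, 1.22 and 1.25 in untreated clones 1, 2 and 3 and 1.79, 2.16 and 1.49 with DOX. The untreated MLL-AF9-ieGFP cultures gave 1.14 at 48 h and 1.12 at 72 h, and the treated ones 1.18 and 1.14. All treated MLL-AF9-i139 clones stood above the other 7 libraries, and clone 3 again stood nearest to them. This ratio was chosen after the values of both genes had been seen and is given as a description. Reads that match both genes could have been assigned to either or to neither, since the sources used here do not give how such reads were handled.

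**Figure D2:**
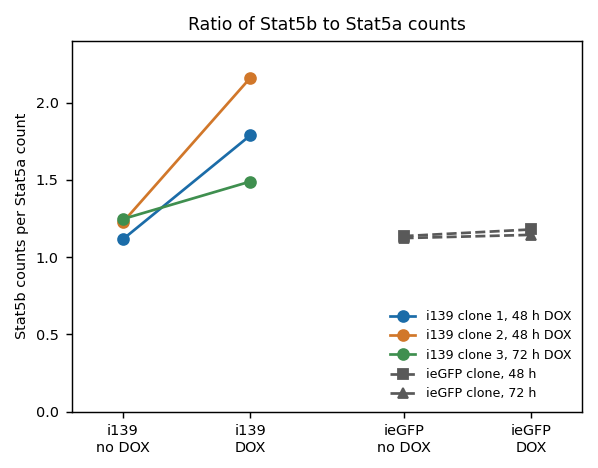
Counts of Stat5b per count of Stat5a in each of the 10 libraries, on a linear axis from 0, with lines as in the plot of CPM by library. The untreated libraries and the MLL-AF9-ieGFP libraries lie between 1.11 and 1.25, and the treated MLL-AF9-i139 clones between 1.49 and 2.16.

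The feedback inhibitors Cish, Socs3 and Socs2 were higher with DOX in each MLL-AF9-i139 clone, although Socs2 did not pass. Per kilobase of exon their untreated levels were below those of the kinases and STAT factors. Cish, a STAT5-induced inhibitor of cytokine receptors, was at 22.7, 19.2 and 12.5 CPM without DOX and at 48.5, 42.8 and 16.1 CPM with DOX. In clones 1 and 2 this was a log2 difference of 1.09 and 1.15, in clone 3 of 0.37, and treated clone 3 lay within the untreated range. The log2 fold change was 1.00 (SE 0.39, adjusted p = 0.207), and with the clone block Cish rose by 0.90 (SE 0.16, adjusted p = 0.0274, edgeR). The annotated genes Gm17040 and Gm17041 cover 38.9% of the body of Cish, and reads shared with them may be missing from its counts. Gm17041 had 0 counts, and Gm17040 between 5 and 37 counts in a library against 493 to 2323 for Cish.

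Socs3, an inhibitor of JAK kinases that STAT3 induces, was at 1.52, 1.14 and 2.31 CPM without DOX and at 3.36, 2.67 and 4.50 CPM with DOX, from 50 to 177 counts in a library. The groups did not overlap, and the 3 clones moved by similar amounts, 1.12, 1.19 and 0.95 on the log2 scale. The log2 fold change was 1.10 (SE 0.32, adjusted p = 0.133), and with the clone block Socs3 rose by 1.12 (SE 0.17, adjusted p = 0.0225, edgeR). In MLL-AF9-ieGFP Socs3 moved with culture time as well. Without DOX it went from 1.12 CPM (48 h) to 2.58 CPM (72 h), and from 1.84 to 2.86 CPM with DOX, so that the time difference (1.17 on the log2 scale without DOX) was as large as the DOX difference in MLL-AF9-i139. Since the times of the untreated MLL-AF9-i139 cultures are not known, the part of time in the Socs3 difference was not tested.

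Socs2, which restrains signalling through STAT5, was at 12.2, 9.71 and 10.7 CPM without DOX and at 16.7, 13.3 and 13.0 CPM with DOX. The groups did not overlap. Its log2 fold change of 0.41 (SE 0.17) did not pass without the block (adjusted p = 0.220) or with it (adjusted p = 0.0570, edgeR). In MLL-AF9-ieGFP Socs2 lay between 10.8 and 11.5 CPM.

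Pim1, the STAT5-induced survival kinase, stood out from the other STAT-induced members in direction. It was at 158, 158 and 171 CPM without DOX and at 117, 113 and 153 CPM with DOX. The groups did not overlap, and clone 3 moved least, by -0.16 on the log2 scale against -0.43 and -0.49 in clones 1 and 2. The log2 fold change was -0.34 (SE 0.13, adjusted p = 0.200), and with the clone block Pim1 fell by 0.35 (SE 0.09, adjusted p = 0.0486, edgeR). The untreated MLL-AF9-ieGFP cultures stood at 161 CPM (48 h) and 194 CPM (72 h), and the treated ones at 164 and 207 CPM. There the later cultures were the higher ones, with and without DOX. Gm26885 covers 21.9% of the body of Pim1 and had between 14 and 46 counts in a library, against 4426 to 7695 for Pim1.

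**Figure D3:**
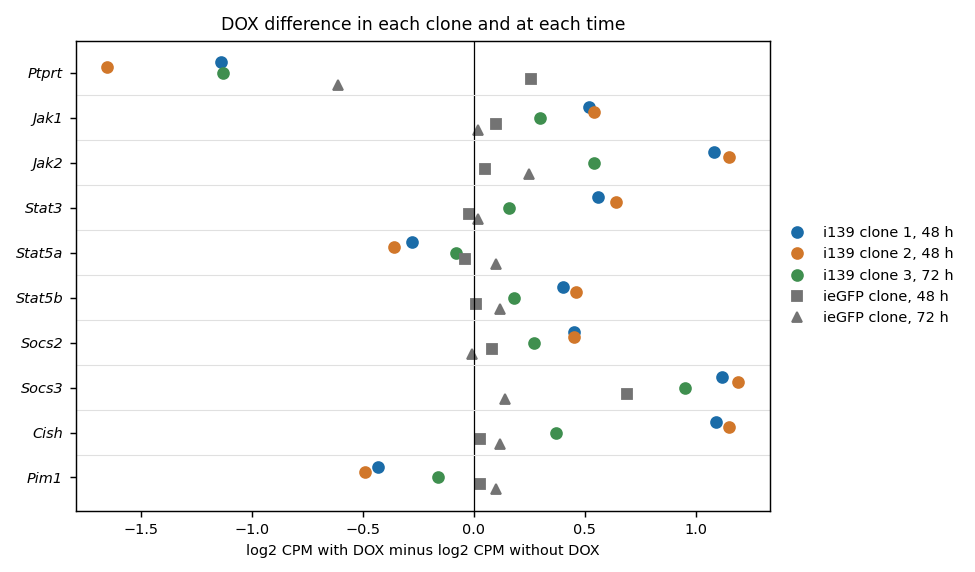
Difference in log2 CPM between the DOX-treated and the untreated library of each MLL-AF9-i139 clone (colours) and of each time point of the MLL-AF9-ieGFP clone (grey), for the 10 genes. Clone 3 lies nearer to 0 than clones 1 and 2 for each gene, by little for Ptprt (-1.13 against -1.14 and -1.65) and Socs3 (0.95 against 1.12 and 1.19).

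Without regard to clones, none of the 10 genes passed the adjusted p of 0.05 between treated and untreated MLL-AF9-i139 clones, where 12 of 19223 genes (0.0624%) passed and 3959 (20.6%) had an unadjusted p under 0.05 (edgeR). All 10 but Stat5a were among the genes with an unadjusted p under 0.05. In the fit with the clone block 8 of the 10 passed, 6 of them higher (Jak1, Jak2, Stat3, Stat5b, Socs3 and Cish) and 2 lower (Ptprt and Pim1), where 12.4% of all genes passed, 7.05% higher and 5.33% lower. DESeq2 without the block called 5 of the 10 (Ptprt, Jak1, Jak2, Stat3 and Socs3), against 8.09% of all genes. Treated and untreated clones did not overlap for 8 of the 10, all but Stat5a and Cish, against 24.9% of the genes tested. The median log2 fold change of the 10 was 0.44, against 0.01 over all genes tested.

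**Figure D4:**
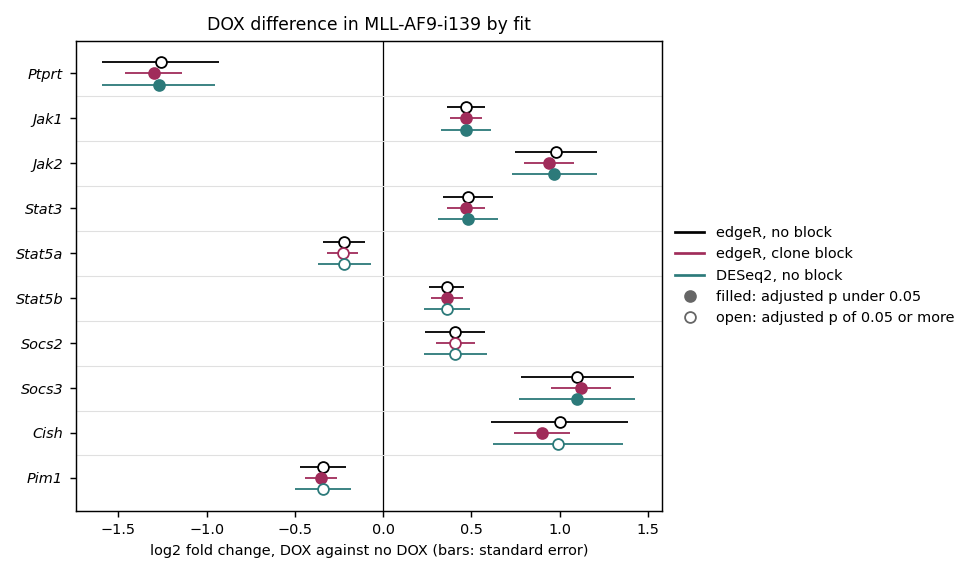
Log2 fold change of the 10 genes between DOX-treated and untreated MLL-AF9-i139 clones in edgeR without a block (black), edgeR with the clone as a block (purple) and DESeq2 without a block (green), with bars of 1 standard error and filled points where the adjusted p was under 0.05. The estimates of the 3 fits lie close to each other, such as -1.26, -1.30 and -1.27 for Ptprt, and the bars are shorter with the block.

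Of the 3 clones, leaving out clone 3 changed these calls most. Without clone 3, the fit without a block called the same 8 of the 10 genes as the fit with the block, with adjusted p between 0.000965 for Cish and 0.0187 for Socs3, where 21.7% of all genes passed (edgeR). Without clone 1 or without clone 2, it called 0 of the 10. Clone 3 is also the only MLL-AF9-i139 clone with 72 h of DOX, so that clone and time cannot be told apart.

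Markers of the myeloid state moved in both directions with DOX. The 9 myeloid progenitor markers summed to 2330 to 3307 CPM of the library totals in untreated and 3323 to 5165 in treated MLL-AF9-i139 clones. In MLL-AF9-ieGFP their sum was 2286 to 2758 untreated and 2628 to 3466 treated. Of the 8 tested, 3 rose and 1 fell with the clone block in edgeR, and DESeq2 without the block called the 3 that rose. Mpo, the granule enzyme myeloperoxidase, rose (log2 fold change 1.40 without the block, SE 0.18, adjusted p = 0.0578 without and 0.00955 with the block, edgeR). The Fc receptor genes Fcgr3 (1.37, adjusted p = 0.0332 with the block, edgeR) and Fcgr2b (0.90, adjusted p = 0.0147 with the block, edgeR) rose as well. Hoxa9, a homeobox gene that MLL-AF9 switches on, fell (-0.35, adjusted p = 0.0428 with the block, edgeR). The other 4 did not pass, with Ptprc at 0.50 (SE 0.20), Elane at 0.07 (SE 0.41), Kit at 0.03 (SE 0.11) and Meis1 at -0.16 (SE 0.11).

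Among the markers of other cells, Gp9, which encodes a platelet glycoprotein, was at 10, 2 and 2 counts in untreated and 30, 32 and 25 counts in treated clones 1, 2 and 3. It rose with the block (log2 fold change 2.71, SE 0.52, adjusted p = 0.0934 without and 0.0278 with the block, edgeR), and in MLL-AF9-ieGFP it had 3 and 5 counts without DOX and 0 and 2 with DOX. Of the other megakaryocyte genes, Itga2b did not pass (0.08, SE 0.30) and Pf4 had 0 counts in each MLL-AF9-i139 library. The part of these shifts in the differences of the JAK-STAT genes was not tested.

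DOX in MLL-AF9-ieGFP, where it also induces eGFP, gave no call for any of the 10 genes. In edgeR 0 of 20269 genes (0%) passed there, with 259 genes at an unadjusted p under 0.05, none of the 10 among them, and DESeq2 called 1 gene, not of this group. Apart from Socs3 (0.35, SE 0.45), Ptprt and Jak2 (0.15, SE 0.24), the log2 fold changes of the 10 lay between 0.00 and 0.07. The test of the difference between the constructs called 1 gene of 20269 (0.00493%) and none of the 10, although its estimate had the sign of the MLL-AF9-i139 difference for each of them. These included 0.81 for Jak2 (SE 0.31), 0.91 for Cish (SE 0.54) and 0.47 for Stat3 (SE 0.19), at unadjusted p of 0.0238, 0.122 and 0.0302 and adjusted p of 0.527, 0.619 and 0.530 (edgeR).

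Under DOX, MLL-AF9-i139 and MLL-AF9-ieGFP differed in 599 of 20269 genes (2.96%, edgeR), with none of the 10 among them. The nearest were Jak1 (0.39 higher in MLL-AF9-i139 on the log2 scale, adjusted p = 0.0683), Pim1 (-0.54, adjusted p = 0.0684), Stat5b (0.35, adjusted p = 0.0752), Jak2 (0.78, adjusted p = 0.0755) and Stat3 (0.46, adjusted p = 0.0818). DESeq2 called these 5 genes, and 11.4% of all genes, with adjusted p between 0.0124 for Jak2 and 0.0285 for Stat3. Without DOX 9 of 20269 genes (0.0444%) passed, again none of the 10, and apart from Ptprt the log2 differences of the group lay between -0.15 for Socs3 and 0.08 for Stat5b. These comparisons share libraries with those of DOX within each construct.

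The other genes of the pathway were taken from 10 lists with 52 genes, all of which had enough counts to be tested. None passed in MLL-AF9-i139 without the clone block. With the block 10 of the 52 rose and 2 fell, against 7.05% and 5.33% of all genes, and their median log2 fold change was 0.22 (0.03 in MLL-AF9-ieGFP).

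Receptor chains for the cytokines of the medium had the highest median among the lists with several genes, 0.57 over 7 genes, with 2 of them higher with the block and 0 lower. Csf2rb2, the IL-3-specific beta chain of mouse cells, was at 36.9 ± 4.0 CPM without and 95.9 ± 39.3 CPM with DOX (SD, n = 3 clones), with a log2 fold change of 1.39 (SE 0.30, adjusted p = 0.0990 without and 0.0323 with the block, edgeR). Csf2ra, the GM-CSF receptor alpha chain, was at 25.8 ± 2.52 CPM without and 60.4 ± 28.9 CPM with DOX (SD, n = 3 clones), with a log2 fold change of 1.24 (SE 0.35, adjusted p = 0.128 without and 0.0360 with the block, edgeR). Both moved mostly in clones 1 and 2, where Csf2rb2 differed by 1.65 and 1.83 on the log2 scale, against 0.35 in clone 3. Csf2rb2 is a near copy of Csf2rb, so that its reads may have been split between them, and Csf2rb (0.57) did not pass in edgeR (adjusted p = 0.137 without and 0.0568 with the block) but did in DESeq2 (adjusted p = 0.0432). The chains of the IL-6 receptor had negative values that did not pass. Il6st, its signalling chain gp130, was at -0.81 (SE 0.33, adjusted p = 0.225 without and 0.0605 with the block, edgeR), and its log2 differences within clones 1, 2 and 3 were -0.39, -0.87 and -1.21, farthest from 0 in clone 3. Il6ra was at -0.26 (SE 0.21). Il3ra, the alpha chain of the IL-3 receptor, was at 0.59 (SE 0.30) and Kit at 0.03 (SE 0.11), and neither passed.

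Among the adaptors and ubiquitin ligases 3 of 7 rose with the block. Sh2b2 and Sh2b1, adaptors that bind JAK2, had log2 fold changes of 0.98 (SE 0.26) and 0.59 (SE 0.14), with adjusted p of 0.0205 and 0.0272 with the block and 0.120 and 0.114 without it (edgeR). Cbl, a ubiquitin ligase that removes activated receptors, had 0.46 (adjusted p = 0.0465 with the block, edgeR). Sh2b3, an adaptor that restrains JAK2, was at 0.21 (SE 0.11).

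Jak3, the kinase of the common gamma chain receptors, rose with the block (log2 fold change 0.51, adjusted p = 0.0228, edgeR), by 0.52, 0.47 and 0.51 in the 3 clones. Tyk2, the other kinase, did not pass (0.23), and 89.5% of its body lies under other genes. Of the PIAS proteins, which attach SUMO and restrain STAT proteins, 1 of 4 was called, Pias3, a partner of STAT3 (0.84, adjusted p = 0.0270 with the block, edgeR). None of the 4 other STAT factors and none of the 5 other SOCS genes passed, with medians of 0.40 and 0.23. Stat6 (0.47, adjusted p = 0.0549 with the block, edgeR) had the most counts of these STAT genes, and Socs4 (0.23) of these SOCS genes.

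None of the 6 other phosphatases that act on JAK, STAT or cytokine receptors passed, with a median of -0.03. Ptprc (CD45) and Ptpn11 (SHP2), which had the most counts of them, had log2 fold changes of 0.50 (SE 0.20) and -0.19 (SE 0.12). The 3 nearest relatives of Ptprt, the R2B receptor phosphatases, did not pass either, with a median of -0.06: Ptpru was at -0.06 (SE 0.32) and Ptprm at 0.42 (SE 0.32). Pxn, which encodes paxillin, a further substrate of PTPRT, rose with the block (log2 fold change 0.58, SE 0.12, adjusted p = 0.0235, edgeR).

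Known STAT-induced genes moved in both directions, with 2 of 13 higher and 2 lower with the block and a median of 0.19. Bcl2l1, the survival gene that encodes BCL-XL, rose (0.90, SE 0.21, adjusted p = 0.0250 with the block, edgeR) and so did Ccnd3, a G1 cyclin (0.75, SE 0.20, adjusted p = 0.0366 with the block, edgeR). Myc fell (-0.45, SE 0.15, adjusted p = 0.0359 with the block, edgeR). Pim3, a relative of Pim1, was the other called gene (-0.44, adjusted p = 0.0493 with the block, edgeR), and the third of the PIM kinases, Pim2, was at 0.04 (SE 0.26).

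**Figure D5:**
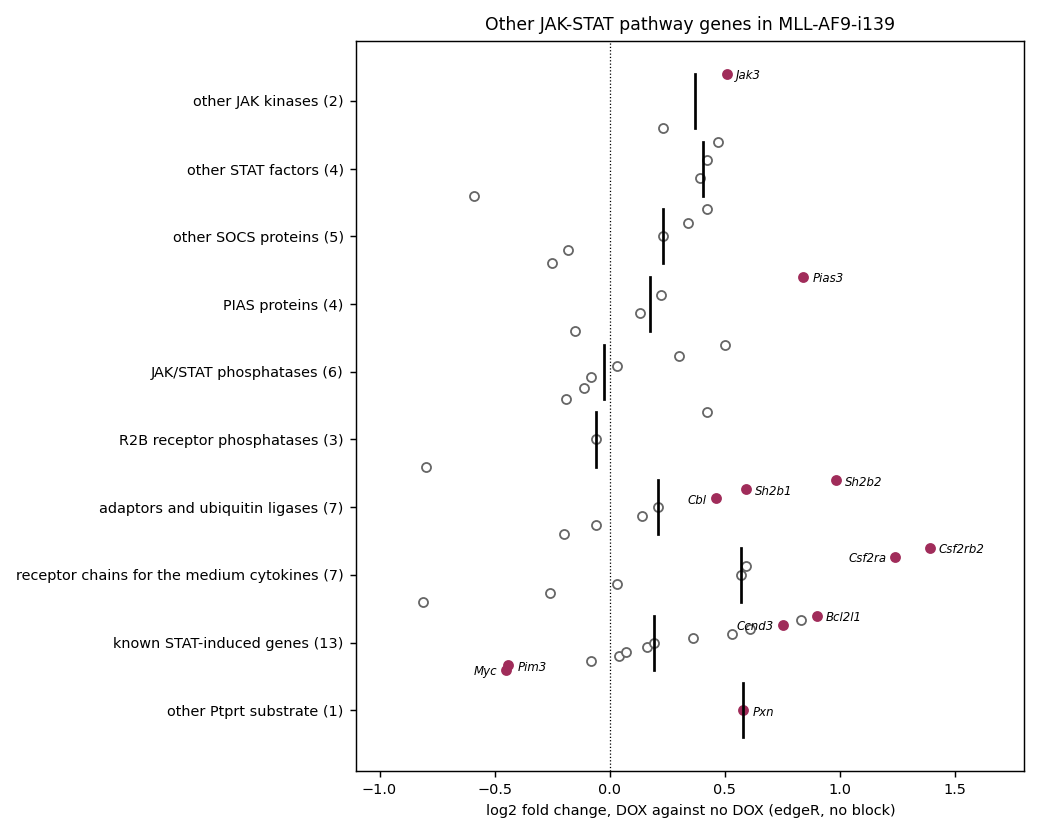
Log2 fold change with DOX in MLL-AF9-i139 (edgeR without the block) of 52 other pathway genes, 1 row per list with its number of genes. Filled points and names mark the 12 genes that passed with the clone block, and black bars mark the median of a list, which was highest for the paxillin list of 1 gene (0.58) and the cytokine receptor chains (0.57).

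The genes whose log2 CPM followed Ptprt most closely over the 10 libraries were Dync1i1 (Pearson's r = 0.948), Dnajc10 (0.931), Parp8 (0.926), Magi2 (0.924) and Kif2a (0.908), out of 10671 genes with an average log2 CPM of at least 1. The 10 points share the libraries and the 3 high untreated MLL-AF9-i139 clones, and the values are a description. Magi2, Dync1i1 and Parp8 were, like Ptprt, lower with DOX in MLL-AF9-i139 (log2 fold changes of -1.41, -1.0 and -0.82) and higher in untreated MLL-AF9-i139 than in untreated MLL-AF9-ieGFP (2.02, 1.16 and 0.54). Since these genes were picked for following Ptprt over the same libraries, no test is given for these differences. Dnajc10 and Kif2a followed the same order with small differences, -0.15 and -0.12 with DOX.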

How the data were processed

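Raw read counts per gene from 10 libraries were analysed. Per the methods and the submitters' processing notes, the authors mapped reads to GRCm38 with STAR 2.5.3e, counted them with featureCounts 1.6.0 on a GENCODE annotation and deposited the counts without normalization or filter. Strand, feature and multi-mapping settings are not given in the sources used here. The values of the libraries were identical in the deposited tables (0 differing), and 14 columns of other samples were not used.

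Groups and clones came from the titles. Genes with at least 10 counts in total were tested with edgeR 4.0.16 (quasi-likelihood test, TMM, R 4.3.3, Benjamini-Hochberg adjustment, threshold 0.05): DOX in MLL-AF9-i139 on its 6 libraries without a block, the other comparisons in 1 fit of 10 libraries. The clone block was the paired alternative. The pairing follows from the titles, which give each treated and untreated library the same clone, and deviations from group means correlated over 19223 genes (r = 0.378, 0.285 and 0.411 within clones, mean -0.178 between clones). The other alternatives were DESeq2 1.42.0, RLE size factors, library totals, other count filters and a fit of 10 libraries. Each MLL-AF9-i139 clone, or each MLL-AF9-ieGFP time, was also left out with both its libraries.

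Differences within clones are log2 CPM with a prior count of 2. Standard errors are the log2 fold change divided by the square root of F. With 3 clones, p-values reflect the spread between clones. Those of MLL-AF9-ieGFP, of the interaction and of the comparisons between the constructs reflect a spread that includes 2 times of 1 clone. Scripts were tested on simulated data. Of 52550 identifiers, 52403 had a symbol.

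The 10 genes and the pathway lists were chosen with earlier results of these data known. From a list, at most the 3 genes with the smallest p among those called with or without the block were named. Otherwise 1 or 2 of the highest level were named. Any other is named for contrast, chosen after its values were seen (Csf2rb, Il6st, Il6ra, Il3ra, Kit, Sh2b3, Tyk2, Pim2, Pim3, Mpo). Figures were drawn with matplotlib 3.10.9.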

Additional observations from a re-analysis of the deposited data

Results flagged for a closer look

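Pim1 was the only one of the 10 genes whose DOX differences had opposite signs in every pair of the constructs: -0.43, -0.49 and -0.16 on the log2 scale in the 3 MLL-AF9-i139 clones, and 0.03 and 0.10 at 48 h and 72 h in the MLL-AF9-ieGFP clone. The test of this difference gave -0.42 (standard error 0.21, unadjusted p = 0.0763, adjusted p = 0.577 without and 0.237 with the clone block, edgeR's quasi-likelihood test), which did not pass. Both differences in MLL-AF9-ieGFP were smaller than its differences between 48 h and 72 h, which were 0.27 without and 0.33 with DOX.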

How the results depend on the processing

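The DOX difference in MLL-AF9-i139 kept its direction for each of the 10 genes under each of 10 alternatives, between -1.37 and -1.14 for Ptprt, 0.88 and 1.13 for Jak2, 1.05 and 1.20 for Socs3, 0.89 and 1.14 for Cish, and -0.44 and -0.27 for Pim1 on the log2 scale. Of these 100 values 73 stayed on the same side of the threshold and 27 newly passed it. Stat5a and Socs2 passed under none of them. Ptprt passed with the replicate block (-1.30, adjusted p = 0.0159, edgeR), with DESeq2 (-1.27), with all 10 libraries in 1 fit (-1.27) and without clone 3 (-1.37). Without clone 1 and without clone 2 Ptprt was at -1.32 and -1.14 and did not pass. Of the other 9 genes 0 passed in the fit as reported, 7 with the replicate block, 4 with DESeq2, 4 with all 10 libraries in 1 fit, 1 at a minimum of 1 count in total, and 0 to 7 with a clone left out. Over all genes 12.4% passed with the replicate block, 8.09% with DESeq2, and 21.7% without clone 3, the clone whose removal gave 7. With all 10 libraries in 1 fit 1234 of 20269 genes passed, and 562 of 25840 at a minimum of 1 count in total.

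The number of genes called for DOX in MLL-AF9-i139 was 12 in the fit as reported. It was 2381 with the replicate block, 1556 with DESeq2, 1234 with all 10 libraries in 1 fit, 562 at a minimum of 1 count in total, 2 at a minimum of 10 counts in every library, 2 with library totals alone, and 0 to 3981 with a clone left out. For the interaction it was 1 as reported, 36 with the replicate block, 83 with DESeq2 and 0 with library totals alone. It was 71 and 0 with the lower and the higher minimum, and 0 to 2011 with an MLL-AF9-i139 clone left out. For DOX in MLL-AF9-ieGFP it was 1 with DESeq2 and 1 with the lower minimum, against 0. Between the constructs without DOX it was 9 as reported and 44 with DESeq2. It was 37 and 4 with the lower and the higher minimum, and 6 to 30 with an MLL-AF9-i139 clone left out. With DOX it was 599 as reported and 2316 with DESeq2. It was 1916 and 954 with the lower and the higher minimum, and 31 to 5089 with an MLL-AF9-i139 clone left out. Counts with an MLL-AF9-ieGFP time left out are not given, because 1 library then remains in each group of that construct.

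Over the interaction and the 3 other comparisons the 9 genes gave 0 calls as reported. With the replicate block, which was fitted only for the interaction and for DOX in MLL-AF9-ieGFP, these 9 genes gave 0 calls. They gave 5 with DESeq2, 4 with the lower minimum, 1 with library totals alone and up to 11 with an MLL-AF9-i139 clone left out. The highest counts came without clone 3, where Jak1, Jak2, Stat3 and Cish passed the interaction (adjusted p from 0.00553 to 0.0156, edgeR). In that setting 2011 of all 19753 genes passed the interaction, and 5089 passed the comparison of the constructs under DOX.

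None of the values that reversed was called, before or after, and most lay within 0.1 of 0, with Socs3 between the untreated constructs (0.57) and Ptprt in MLL-AF9-ieGFP and under DOX (0.26 and -0.26) the farthest from it. With library totals alone, the difference between untreated constructs was 0.01 for Stat3 and 0.02 for Jak1. With an MLL-AF9-i139 clone or an MLL-AF9-ieGFP time left out, that difference ran from -0.08 to 0.02 for Stat3 and -0.01 to 0.13 for Stat5b. It ran from -0.12 to 0.05 for Socs2, -0.68 to 0.57 for Socs3 and -0.28 to 0.10 for Cish. For Pim1 it ran from -0.29 to 0.02, for Jak1 from -0.05 to 0.01 and for Jak2 from -0.15 to 0.01. With 1 time left out, DOX in MLL-AF9-ieGFP gave -0.63 to 0.26 for Ptprt, -0.04 to 0.08 for Stat5a and -0.03 to 0.08 for Socs2. The difference under DOX ran from -0.26 to 0.41 for Ptprt with a clone or a time left out. The cause of these changes was not tested.

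In MLL-AF9-i139 clone and treatment time could not be separated, nor, with 1 control clone, construct and clone. Low counts limit Ptprt and Socs3 (at most 521 and 177 in a library), and overlapping annotation limits Cish and Pim1.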
